A study of Mus musculus with 17 samples.

Results

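The genes described here encode voltage-gated calcium channels and potassium channels, with their auxiliary subunits, in cultured mouse pancreatic islets. They were taken by symbol, as the genes whose name begins with Kcn, Cacn or Scn followed by a lower-case letter, without Kcnj11, Cacna1d and the Scnn genes. Each gene was represented by its probe set with the highest mean over all arrays. This gave 107 of the 18193 genes with a probe set of a single symbol. Of these, 103 encode channel subunits and their partners. The other 4 are the non-coding RNAs Kcnq1ot1, Kcnmb4os1 and Kcnmb4os2, and Scnm1, which is named a sodium channel modifier and is not a channel subunit. Symbols of sodium channel subunits carry a digit after Scn, so these genes are not among the 107 and are given as a separate list.

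The islets came from C57BL/6 mice and were untreated apart from being kept in serum-containing F12K medium. Each of 6 batches pooled the islets of 4 mice and was divided over 3 times of harvest: 0 h, 24 h and 48 h. RNA of each portion was amplified, labelled and hybridised to a single-colour whole-genome oligonucleotide array, and 5 arrays at 0 h, 6 at 24 h and 6 at 48 h were used. For batch 5 the 0 h portion is not analysed here, and replicate numbers below are batch numbers. Levels are deposited log2 values, so a difference of 1 is a doubling of the array signal. A gene was called when its adjusted p was under 0.05 in limma's moderated test over all 45037 probe sets (Benjamini-Hochberg), and differences are given with their standard error (SE). Array medians lay between 3.47 and 3.57, and arrays correlated at 0.976 to 0.995. Replicate 3 at 0 h and replicate 5 at 24 h stood apart, with median correlations to the other arrays of their time of 0.987 and 0.988, where the lowest of the other arrays was at 0.991.

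Beta cells turn glucose into electrical activity. Closure of ATP-sensitive potassium channels depolarises the membrane, voltage-gated calcium channels then open, and the calcium that enters releases insulin. Voltage-gated, calcium-activated and two-pore-domain potassium channels repolarise the cell or set its resting current, and auxiliary subunits change how fast the pores open, close or inactivate. Islets also hold other endocrine cells, vessels, pericytes and macrophages, which carry channels of their own. In such bulk samples, fewer cells of a type and less RNA per cell cannot be told apart.

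A mean level above 5 over the 17 arrays was reached by 21 of the 107 genes. Among pore subunits these were the voltage-gated potassium channels Kcnh1, Kcnh2 and Kcnh3, the silent subunit Kcnf1, the inward rectifier Kcnj8, and the two-pore-domain channels Kcnk1, Kcnk12 and Kcnk16. The large-conductance calcium-activated channel Kcnma1, its relative Kcnu1, and the calcium channel pores Cacna1a and Cacna1c completed this group. Auxiliary subunits above 5, assigned by symbol alone, were Kcnip1, Kcnip2, Kcnip4, Kcnmb2, Cacnb2, Cacna2d1, Cacng2 and Cacng7, and Scnm1 was also above it. The means ran from 5.05 for Cacna1a and 5.06 for Cacng2, just inside the threshold, to 9.90 for Kcnmb2. Just outside it lay Cacna2d2 at 4.97 and Kcnk3 at 4.71. Probe sets differ in affinity, so these means do not order the genes by transcript number. The median of the whole table was 3.52, and values near or under it were not separated from background.

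The 250 bases upstream of the start site are shown for 3 of these genes, because their arrays at 0 h did not overlap with those at either later time. Sequences are from RefSeq on GRCm38.p6, where 81 of the 107 genes and 10 of the 11 called ones had an entry. Each is written 5′ to 3′ along the gene, and capitals mark matches to searched motifs on either strand. Kcnj8 (chr6:142571615-142571864, minus strand) is the inward rectifier that forms the pore of the ATP-sensitive channel of vascular smooth muscle. Kcnk16 (chr14:20269270-20269519, minus strand) is a two-pore-domain channel known for its expression in the pancreas. Kcnip2 (chr19:45816064-45816313, minus strand) encodes a calcium-binding partner of the Kv channels of the Kcnd genes.
Kcnj8: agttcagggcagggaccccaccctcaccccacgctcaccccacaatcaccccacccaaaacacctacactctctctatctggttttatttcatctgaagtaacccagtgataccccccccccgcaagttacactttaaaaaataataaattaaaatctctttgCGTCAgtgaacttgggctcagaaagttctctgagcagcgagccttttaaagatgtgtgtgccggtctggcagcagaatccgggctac
Kcnk16: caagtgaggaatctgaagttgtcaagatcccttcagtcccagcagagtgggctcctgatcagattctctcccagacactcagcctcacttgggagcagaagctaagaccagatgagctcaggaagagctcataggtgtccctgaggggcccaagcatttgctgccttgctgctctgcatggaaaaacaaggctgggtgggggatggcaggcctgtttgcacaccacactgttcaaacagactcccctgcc
Kcnip2: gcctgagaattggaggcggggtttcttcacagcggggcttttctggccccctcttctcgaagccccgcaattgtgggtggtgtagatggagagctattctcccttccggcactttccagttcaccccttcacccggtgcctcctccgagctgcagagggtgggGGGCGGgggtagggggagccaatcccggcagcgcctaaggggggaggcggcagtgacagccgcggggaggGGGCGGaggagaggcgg
Of all 32851 promoter windows of this length, 32.7% hold the motif GGGCGG and 17.8% hold TGACG. Searched as well were CACGTG, held by 6.02%, and the motif TAATTA, held by 4.84%. They were chosen with earlier matches in view. The Kcnip2 window held 2 copies of GGGCGG, 15 CpG dinucleotides and 66.8% GC. The Kcnj8 window held a single TGACG, read on the other strand as CGTCA, with 6 CpG and 49.2% GC. The Kcnk16 window held 0 CpG, 54.8% GC and none of the 4 motifs. All windows together had medians of 6 CpG and 52.4% GC. A match is a description of letters only.

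At 24 h against 0 h, 11 of the 107 channel genes were called, 3 higher and 8 lower (5.44% of all genes were called higher and 6.66% lower). That is 10.3% of the channel genes, against 12.1% of all genes, so the share of channel genes called was near the background. Kcnj8, Kcnip1 and Kcne3 rose, and Kcna5, Kcnip2, Kcnk16, Kcnmb2, Kcnu1, Kcnn4, Cacnb2 and Kcnma1 fell. The arrays of both times did not overlap for 11 channel genes, with 8.78% of all genes in that state, and 21 channel genes had an unadjusted p under 0.05, against 25.5% of all genes. The median difference of the 107 genes was -0.02, beside -0.01 for all genes. Among the 21 channel genes above a mean of 5, 8 were called, which is 38.1% of them against 19.0% of all genes above that level. That mean is taken over all times, so Kcnj8 passed it through its 24 h and 48 h arrays, and Kcnip2 through its 0 h arrays. For these genes being above 5 depends on the change that is counted, so nothing is concluded from this share. Among the other 86 genes 3 were called, which is 3.49%, at levels where all genes were called less often too.

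At 48 h against 0 h, 6 channel genes were called, which is 5.61% of them against 11.7% of all genes. Kcnj8 was the single gene that rose (6.45% of all genes). Kcnip2, Kcna5, Kcnk16, Kcnn4 and Kcnmb2 fell (5.27% of all genes). Of the 21 channel genes above a mean of 5, 4 were called (17.8% of all genes above that level). Kcnj8 and Kcnip2 are among these 4 and pass that mean only through the times at which they are high. Arrays did not overlap for 3 of the 107 genes (9.17% of all genes), 19 had an unadjusted p under 0.05 (26.6% of all genes), and the median difference was -0.06, beside -0.02 for all genes. The comparisons at 24 h and 48 h share the 0 h arrays, so a gene called in both was measured against the same 5 arrays. Between 48 h and 24 h, limma called 0 of the 107 genes (0.759% of all genes), 6 had an unadjusted p under 0.05 (14.2% of all genes), and arrays did not overlap for 0 (1.57% of all genes). The study's design text names a change above 4-fold in mean signal as its criterion for follow-up. None of the 107 genes met it, as the highest ratio of mean linear signal was 2.50 at 24 h and 2.66 at 48 h, both for Kcnj8.

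**Figure D1:**
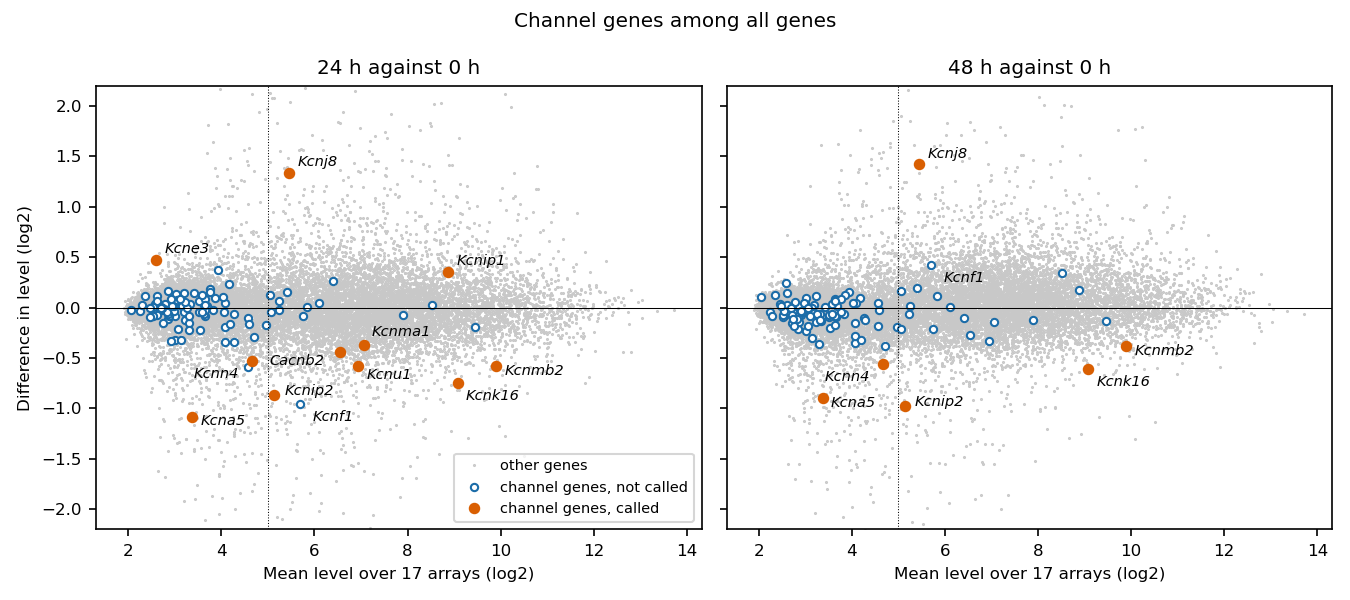
Difference in log2 level at 24 h and at 48 h against 0 h (y axes) for each gene, plotted against its mean level over 17 arrays (x axes, log2). Grey points are all other genes, open blue points are channel genes that were not called and filled orange points are those called; the dotted line marks the mean of 5, and genes beyond the plotted range of differences are not drawn. Kcnj8 lies at 1.34 and 1.42, above the other channel genes, and most channel genes lie close to 0 at low levels.

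Kcnj8 rose most among the 107 genes. Its levels at 0 h were 4.65, 4.49, 4.43, 4.91 and 3.91, with a mean of 4.48 ± 0.37 (SD, n = 5). At 24 h they ranged from 5.53 to 6.12 around a median of 5.80 and a mean of 5.82 ± 0.24 (SD, n = 6). At 48 h they ranged from 5.49 to 6.19 around a median of 5.97 and a mean of 5.90 ± 0.30 (SD, n = 6). Every later array was thus above every 0 h array, and the rise was already present at 24 h. The difference was 1.34 ± 0.17 (SE) at 24 h, a 2.53-fold rise (adjusted p = 2.41e-05 by limma). It was 1.42 ± 0.17 at 48 h, a 2.68-fold rise (adjusted p = 1.77e-05 by limma). Within batches the difference lay between 0.93 and 2.15 at 24 h, and between 0.58 and 1.75 at 48 h, and was positive in 5 of 5 batches each time. From 24 h to 48 h the level differed by 0.08 ± 0.16 (adjusted p = 0.893).

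Kcnj8 is itself a known marker of pericytes. Of 8 other markers of pericytes and smooth muscle, 0 rose and 4 fell at 24 h, and 0 rose and 4 fell at 48 h. Of all genes, 6.66% fell at 24 h and 5.27% at 48 h. Their mean level was 4.95 to 5.18 on the 0 h arrays, 4.20 to 4.35 on the 24 h arrays and 4.27 to 4.54 on the 48 h arrays. Rgs5, a pericyte regulator of G-protein signalling, fell by 3.07 at 24 h and by 3.12 at 48 h (adjusted p = 9.66e-08 and 7.84e-08 by limma). Acta2, the smooth muscle actin, was at 6.49 to 7.32 on the 0 h arrays, 4.82 to 5.56 at 24 h and 6.03 to 6.85 at 48 h. Its rise of 1.13 from 24 h to 48 h was the 1 call among these markers in that comparison. Tagln, an actin-binding protein of smooth muscle, fell by 0.96 and 0.79. Pdgfrb, the PDGF receptor of pericytes, differed by -0.06 and -0.08, and was not called. Markers of the endothelium fell too: of 10, 6 fell at 24 h and 7 at 48 h, and their mean was 5.98 to 6.35 on the 0 h arrays and 4.59 to 5.05 on the 48 h arrays. The part of these cells in the Kcnj8 result was not tested. Abcc9, the sulphonylurea receptor subunit that pairs with Kcnj8 in vessels, differed by -0.29 ± 0.26 at 24 h and 0.28 ± 0.26 at 48 h (adjusted p = 0.628 and 0.610).

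**Figure D2:**
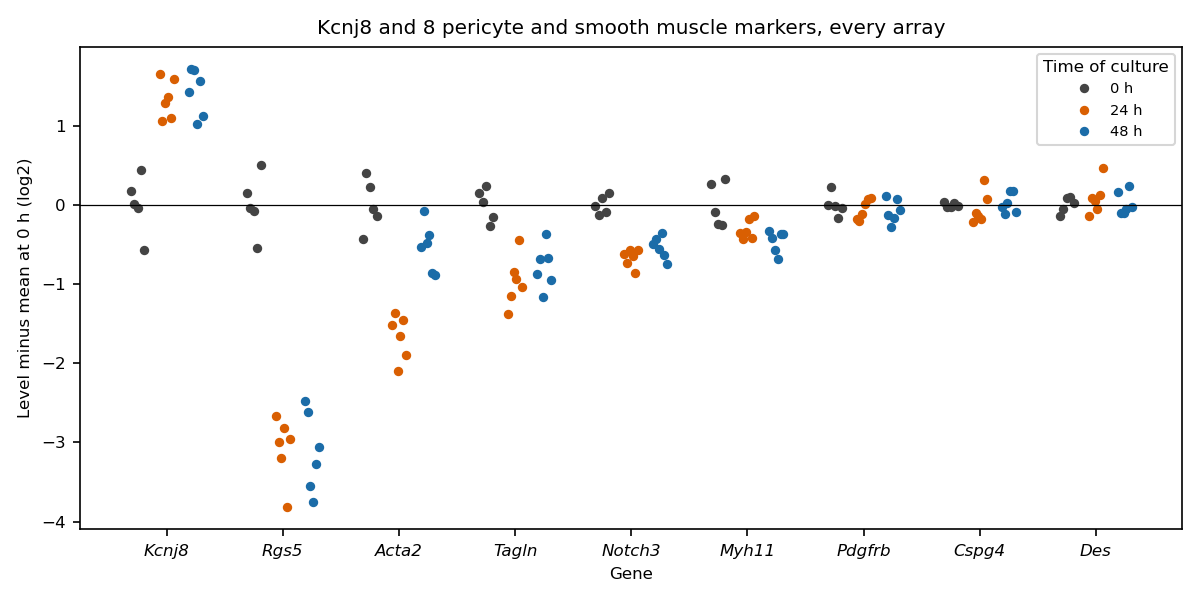
Level minus the mean at 0 h (y axis, log2) on every array for Kcnj8 and 8 markers of pericytes and smooth muscle (x axis), with grey points for 0 h, orange for 24 h and blue for 48 h. Kcnj8 is above its 0 h arrays at both later times, Rgs5 lies about 3.07 below its 0 h mean at 24 h, and Pdgfrb, Cspg4 and Des scatter around 0.

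The other 13 inward rectifiers were not called. Kcnj10, a rectifier best known from glia, differed by -0.32 at 24 h (adjusted p = 0.136) and by -0.30 at 48 h (adjusted p = 0.159). The G-protein-gated subunits Kcnj3, Kcnj5 and Kcnj6 differed by 0.01, -0.05 and -0.03 at 24 h, and the strong rectifier Kcnj2 by 0.03. At 48 h these 4 genes differed by -0.11 to 0.07, and none was called. Kcnj11, the pore of the beta cell ATP-sensitive channel, which the choice of genes leaves out, had mean levels of 7.33 at 0 h, 7.23 at 24 h and 7.18 at 48 h. Its differences were -0.10 (adjusted p = 0.636) and -0.16 (adjusted p = 0.351).

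Of the 12 two-pore-domain channels, Kcnk16 alone was called, and it fell at both times. Its levels at 0 h were 9.31, 9.46, 9.70, 9.62 and 9.69 (mean 9.56 ± 0.17, SD, n = 5). They were 8.63 to 8.99 at 24 h (median 8.82, mean 8.81 ± 0.16, SD, n = 6) and 8.68 to 9.22 at 48 h (median 8.97, mean 8.95 ± 0.19, SD, n = 6). The highest later array was below the lowest 0 h array. The fall was 0.75 on the log2 scale (SE 0.10) at 24 h, 1.68-fold (adjusted p = 6.17e-05 by limma). At 48 h Kcnk16 was 1.53-fold lower than at 0 h (difference -0.61 ± 0.10, adjusted p = 0.000623 by limma). Its decrease was seen in 5 of 5 batches at each time.

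Kcnk1, a weakly inward-rectifying channel of the same class, had levels of 8.56, 8.18, 8.13, 8.57 and 8.53 at 0 h, 8.10 to 8.67 at 24 h (median 8.50) and 8.44 to 9.07 at 48 h (median 8.71). Its arrays overlapped between all times. The differences were 0.03 ± 0.13 at 24 h (adjusted p = 0.943) and 0.34 ± 0.13 at 48 h (adjusted p = 0.119; 95% interval 0.07 to 0.61). Kcnk3, an acid-sensitive background channel, had means of 4.94, 4.65 and 4.56 at the 3 times. Its differences of -0.30 (adjusted p = 0.188) and -0.38 (adjusted p = 0.0727) were below 0 in 5 of 5 batches at both times and were not called. Kcnk2, the mechanosensitive channel, differed by -0.08 at both times.

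Of the 8 calcium- or sodium-activated potassium channels and Slo relatives, 3 fell and 0 rose at 24 h, where 6.66% of all genes fell. Kcnma1 is the pore of the large-conductance channel that opens on calcium and voltage together. Its levels were 7.32, 7.15, 7.35, 7.25 and 7.11 at 0 h (mean 7.24 ± 0.11, SD, n = 5), 6.72 to 7.09 at 24 h (median 6.86, mean 6.87 ± 0.14, SD, n = 6) and 6.95 to 7.20 at 48 h (median 7.13, mean 7.09 ± 0.11, SD, n = 6). The 24 h arrays lay below all 0 h arrays, and the 48 h arrays overlapped with both. The difference was -0.37 ± 0.08 at 24 h (adjusted p = 0.00503 by limma) and -0.15 ± 0.08 at 48 h (adjusted p = 0.302). Its 5 probe sets ran from -0.37 to 0.18 at 24 h, and their mean was not called (-0.15, adjusted p = 0.346).

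Kcnmb2, the auxiliary subunit that inactivates this channel, was also lower at 24 h on its brighter probe set. Its other probe set, with a mean of 7.15, differed by -0.16 and -0.10 and was not called (adjusted p = 0.749 and 0.853 by limma). On the brighter probe set, levels at 0 h were 10.26, 9.96, 10.34, 10.44 and 10.22 (mean 10.24 ± 0.18, SD, n = 5). They were 9.50 to 9.95 at 24 h (median 9.60, mean 9.66 ± 0.16, SD, n = 6) and 9.71 to 10.01 at 48 h (median 9.85, mean 9.86 ± 0.14, SD, n = 6). All 24 h arrays were under the lowest 0 h array, while 48 h arrays reached into the 0 h range. The differences were -0.58 ± 0.10 at 24 h, 1.50-fold lower (adjusted p = 0.000454 by limma), and -0.38 ± 0.10 at 48 h (adjusted p = 0.0154 by limma). The call at 48 h was lost without replicate 4 at 0 h (-0.33, adjusted p = 0.0534) and when both probe sets were averaged (-0.24, adjusted p = 0.215).

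Kcnu1 is a relative of Kcnma1 known from sperm, and the array has a single probe set for it. Its levels were 7.16, 7.08, 7.16, 7.34 and 7.60 at 0 h (mean 7.27 ± 0.21, SD, n = 5), 6.40 to 7.03 at 24 h (median 6.69, mean 6.69 ± 0.24, SD, n = 6) and 6.65 to 7.32 at 48 h (median 6.97, mean 6.94 ± 0.26, SD, n = 6). The 24 h arrays were below all 0 h arrays. The difference was -0.58 ± 0.13 at 24 h (adjusted p = 0.00818 by limma) and -0.33 ± 0.13 at 48 h (adjusted p = 0.148).

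Kcnn4, the calcium-activated channel of intermediate conductance, had a mean of 4.66 over all arrays. Its levels were 4.98, 4.88, 5.42, 4.76 and 5.21 at 0 h (mean 5.05 ± 0.26, SD, n = 5), 4.34 to 4.76 at 24 h (median 4.53) and 4.32 to 4.78 at 48 h (median 4.39). The 0 h and later arrays met at the edge of their ranges, and Kcnn4 was lower in 5 of 5 batches at both times. The differences were -0.53 ± 0.12 (adjusted p = 0.00578 by limma) and -0.56 ± 0.12 (adjusted p = 0.00422 by limma). Its other probe set differed by -0.02 and 0.05, and the mean of both probe sets was not called (adjusted p = 0.120 and 0.147). Kcnn3, a small-conductance channel, differed by 0.10 and 0.05 and was not called.

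Among auxiliary subunits of voltage-gated potassium channels, 3 of 12 were called at 24 h, 2 higher and 1 lower, where 12.1% of all genes were called. Of the 3, Kcne3 had values not separated from background. Kcnip1 and Kcnip2 are calcium-binding proteins of the same family that assemble with the rapidly inactivating Kcnd channels, and they moved apart. Kcnip2 levels were 5.69, 5.64, 6.06, 5.95 and 5.59 at 0 h (mean 5.78 ± 0.21, SD, n = 5), 4.59 to 5.20 at 24 h (median 4.93, mean 4.92 ± 0.19, SD, n = 6) and 4.29 to 5.13 at 48 h (median 4.89, mean 4.81 ± 0.28, SD, n = 6). No later array reached the 0 h range. The differences were -0.87 ± 0.13 at 24 h, 1.83-fold lower (adjusted p = 0.000206 by limma), and -0.98 ± 0.13 at 48 h, 1.97-fold lower (adjusted p = 8.03e-05 by limma). Its other 2 probe sets, with means of 3.28 and 2.51, differed by 0.11 and 0.07 at 24 h. The mean of its 3 probe sets differed by -0.23 at 24 h (adjusted p = 0.0265) and by -0.31 at 48 h.

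Kcnip1 levels were 8.70, 8.47, 8.73, 8.87 and 8.65 at 0 h (mean 8.69 ± 0.14, SD, n = 5), 8.90 to 9.22 at 24 h (median 9.03, mean 9.04 ± 0.12, SD, n = 6) and 8.63 to 8.94 at 48 h (median 8.89, mean 8.86 ± 0.11, SD, n = 6). The 24 h arrays lay above all 0 h arrays, and the 48 h arrays overlapped with them. The rise was 0.36 ± 0.08 at 24 h (adjusted p = 0.00713 by limma), and the difference at 48 h was 0.17 ± 0.08 (adjusted p = 0.221). Another Kcnip1 probe set rose at both times, by 0.43 (adjusted p = 0.00905) and 0.37 (adjusted p = 0.0269). Its remaining probe sets, with means of 5.46 and 3.12, were not called. They differed by 0.34 and 0.01 at 24 h (adjusted p = 0.528 and 0.985 by limma), and by 0.47 and -0.11 at 48 h.

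Kcnip4, of the same family, differed by 0.16 (adjusted p = 0.623) and 0.20 (adjusted p = 0.470). Kcnd1 and Kcnd3, pores that these proteins bind, differed by -0.34 (adjusted p = 0.0744) and -0.21 at 24 h and were not called. Kcne3, a small single-pass subunit, was the third called gene. Its levels were 2.32, 2.17, 2.36, 2.41 and 2.44 at 0 h and 2.53 to 3.22 at 24 h (median 2.80), all under the median of the table. Its difference of 0.48 ± 0.12 (adjusted p = 0.0155 by limma) was thus measured on values that were not separated from background.

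Of 22 pore subunits of voltage-gated potassium channels, Kcna5 alone was called, at both times. Kcna5 is a delayed rectifier of the Shaker family. Its levels were 4.53, 3.17, 4.08, 4.15 and 4.45 at 0 h (mean 4.08 ± 0.54, SD, n = 5), 2.84 to 3.08 at 24 h (median 2.99, mean 2.99 ± 0.09, SD, n = 6) and 2.74 to 3.57 at 48 h (median 3.13, mean 3.17 ± 0.32, SD, n = 6). Replicate 2 at 0 h was already near the later values, and the other 0 h arrays were above them. The differences were -1.09 ± 0.19 (adjusted p = 0.000869 by limma) and -0.90 ± 0.19 (adjusted p = 0.00502 by limma). The later means lie under the median of the table, so these differences may understate the fall. Kcnh2, the ether-a-go-go-related channel, had levels of 8.13, 7.88, 8.05, 8.07 and 7.68 at 0 h, 7.76 to 8.03 at 24 h (median 7.89) and 7.63 to 8.09 at 48 h (median 7.82). Its ranges overlapped at all times, with a 95% interval of -0.26 to 0.12 for the difference at 24 h (adjusted p = 0.745). Kcnq1 differed by -0.16 and by -0.32 (adjusted p = 0.610 and 0.184). Differences of the 22 pores were below 0 for 18 genes at 24 h and for 18 at 48 h, with a median of -0.07 at each. Of all genes, 52.5% and 54.3% were below 0. Only 3 of the 22 had a mean above 5, and most, such as Kcnh5 at 2.25 and Kcnq5 at 2.54, lay under the median of the table. Many of these signs thus come from values not separated from background. Both counts use the same 0 h arrays, so they are not separate observations.

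**Figure D3:**
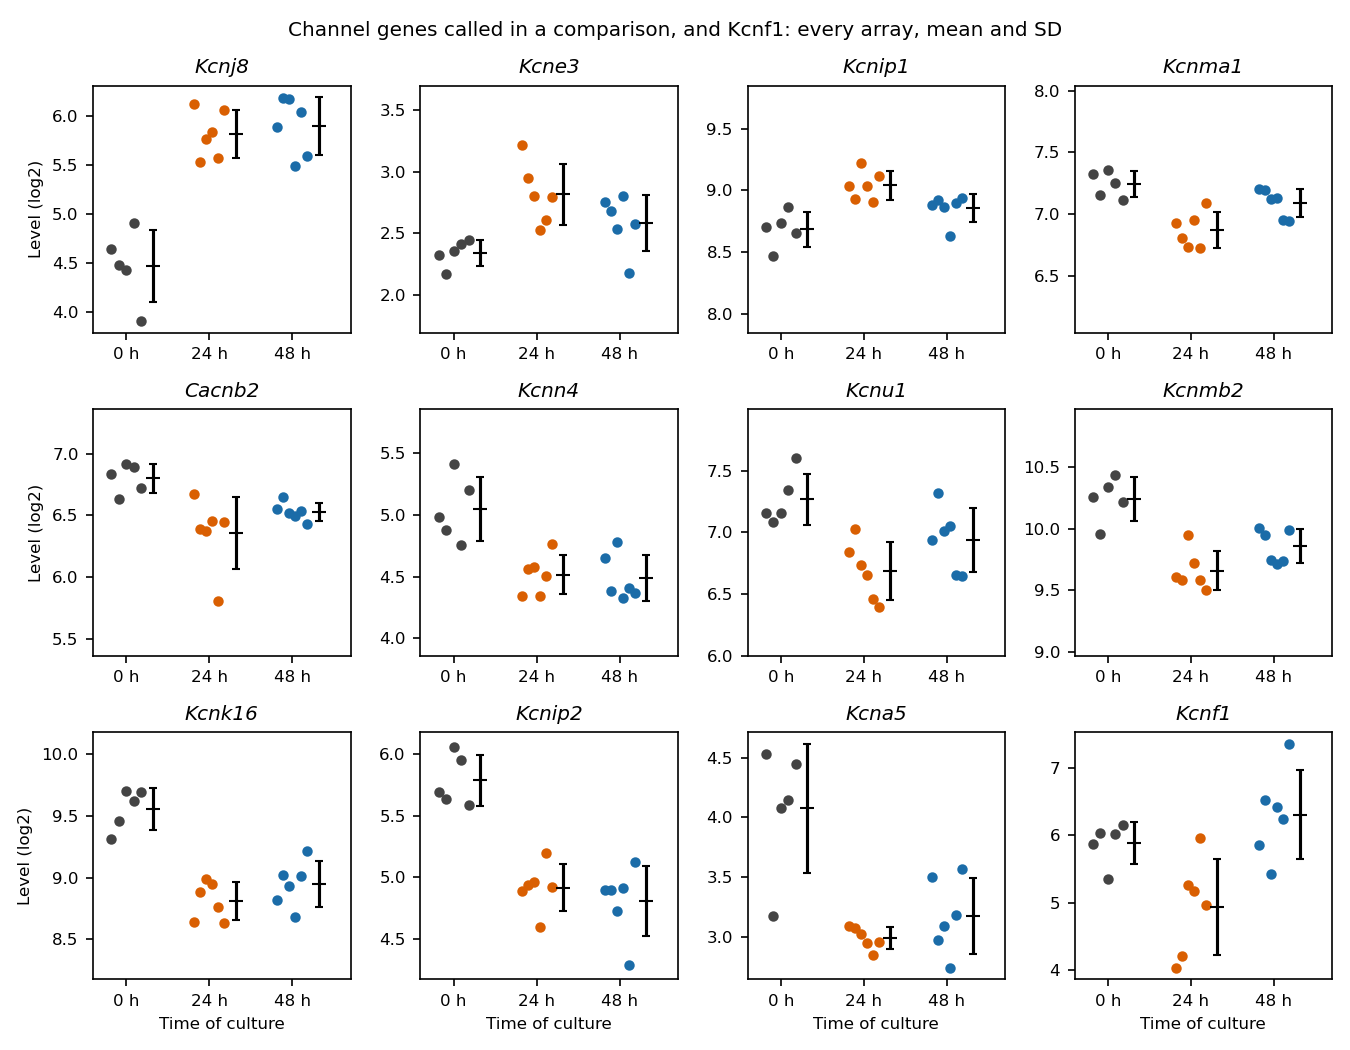
Level (y axes, log2) on every array by time of culture (x axes) for the 11 channel genes called in a comparison and for Kcnf1, with the mean and SD beside the points of each time. Kcnj8, Kcnk16 and Kcnip2 show no overlap between 0 h and either later time, Kcnma1 and Kcnu1 have their lowest mean at 24 h, and the y axes differ in position between panels.

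Kcnf1, a silent subunit that forms no channel by itself and changes the behaviour of others, is shown after its values were seen. Its levels were 5.88, 6.03, 5.35, 6.02 and 6.15 at 0 h, 4.03 to 5.96 at 24 h (median 5.06, mean 4.93 ± 0.72, SD, n = 6) and 5.42 to 7.36 at 48 h (median 6.34, mean 6.31 ± 0.66, SD, n = 6). The 24 h level was under that of the same batch at 0 h in 5 of 5 batches and at 48 h in 6 of 6. The difference between 24 h and 0 h was -0.96 ± 0.32 (adjusted p = 0.0792 by limma), and that between 48 h and 24 h was 1.38 ± 0.31 (adjusted p = 0.0551 by limma). With the batch as a fixed replicate block both passed (-1.05 with adjusted p = 0.0404, and 1.38 with adjusted p = 0.0445), and without replicate 5 at 24 h they were -1.16 (adjusted p = 0.0210) and 1.58 (adjusted p = 0.0181). Of 28 alternatives, however, 22 left the first difference uncalled (adjusted p up to 0.169) and 19 the second (up to 0.126). Its other probe set differed by -0.09 and 0.18. The other 8 silent subunits were called in none of the 3 comparisons and differed by -0.16 to 0.16 at 24 h.

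The 8 pore subunits of voltage-gated calcium channels were not called at any time. Their differences lay between -0.22 and 0.15 at 24 h, and between -0.21 and 0.17 at 48 h. Cacna1c, an L-type pore that carries calcium into beta cells, had levels of 5.95, 5.89, 5.48, 5.81 and 5.86 at 0 h, 5.63 to 6.07 at 24 h (median 5.73) and 5.64 to 6.13 at 48 h (median 5.92). The ranges overlapped throughout, and the 95% interval of the difference at 24 h was -0.22 to 0.23 (adjusted p = 0.987). Cacna1a, the P/Q-type pore, differed by 0.12 and 0.17. Cacna1b, the N-type pore, differed by -0.22 and -0.21, Cacna1e, the R-type pore, by -0.09 and -0.10, and the T-type pore Cacna1h by -0.12 and -0.15. Cacna1d, the other L-type pore of islets, which the choice of genes leaves out, had means of 7.49, 7.24 and 7.31 and was not called (adjusted p = 0.445 and 0.597).

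Of their auxiliary subunits, Cacnb2 fell at 24 h. This cytoplasmic subunit brings the pore to the membrane. Its levels were 6.83, 6.63, 6.92, 6.89 and 6.72 at 0 h (mean 6.80 ± 0.12, SD, n = 5), 5.80 to 6.67 at 24 h (median 6.42, mean 6.36 ± 0.29, SD, n = 6) and 6.42 to 6.65 at 48 h (median 6.53, mean 6.53 ± 0.07, SD, n = 6). Its 24 h and 0 h ranges overlapped, and 5 of 5 batches were lower at 24 h. The difference was -0.44 ± 0.11 at 24 h (adjusted p = 0.0150 by limma) and -0.27 ± 0.11 at 48 h (adjusted p = 0.157). It was -0.33 (adjusted p = 0.00758) without replicate 5 at 24 h, the array at 5.80, and the call was lost when only 0 h and 24 h were fitted (adjusted p = 0.0535). The other Cacnb2 probe set, with a mean of 3.66, differed by -0.21 and -0.08 and was not called (adjusted p = 0.140 and 0.624 by limma). Cacna2d1, an extracellular subunit that raises channel number at the surface, had 0 h levels of 9.72, 9.49, 9.42, 9.59 and 9.63. It differed by -0.20 (adjusted p = 0.181) and -0.13 (adjusted p = 0.413), and its 24 h range of 9.21 to 9.48 (median 9.38) overlapped with them. These values are from the brightest of 5 Cacna2d1 probe sets, which disagreed in sign. The lowest difference among the 5 was -0.68 at 24 h, while the highest was 0.25. For 48 h the extremes were -0.33 and 0.33. The 8 genes placed with the gamma subunits by their symbol alone were not called, with differences from -0.12 to 0.26 at 24 h.

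**Figure D4:**
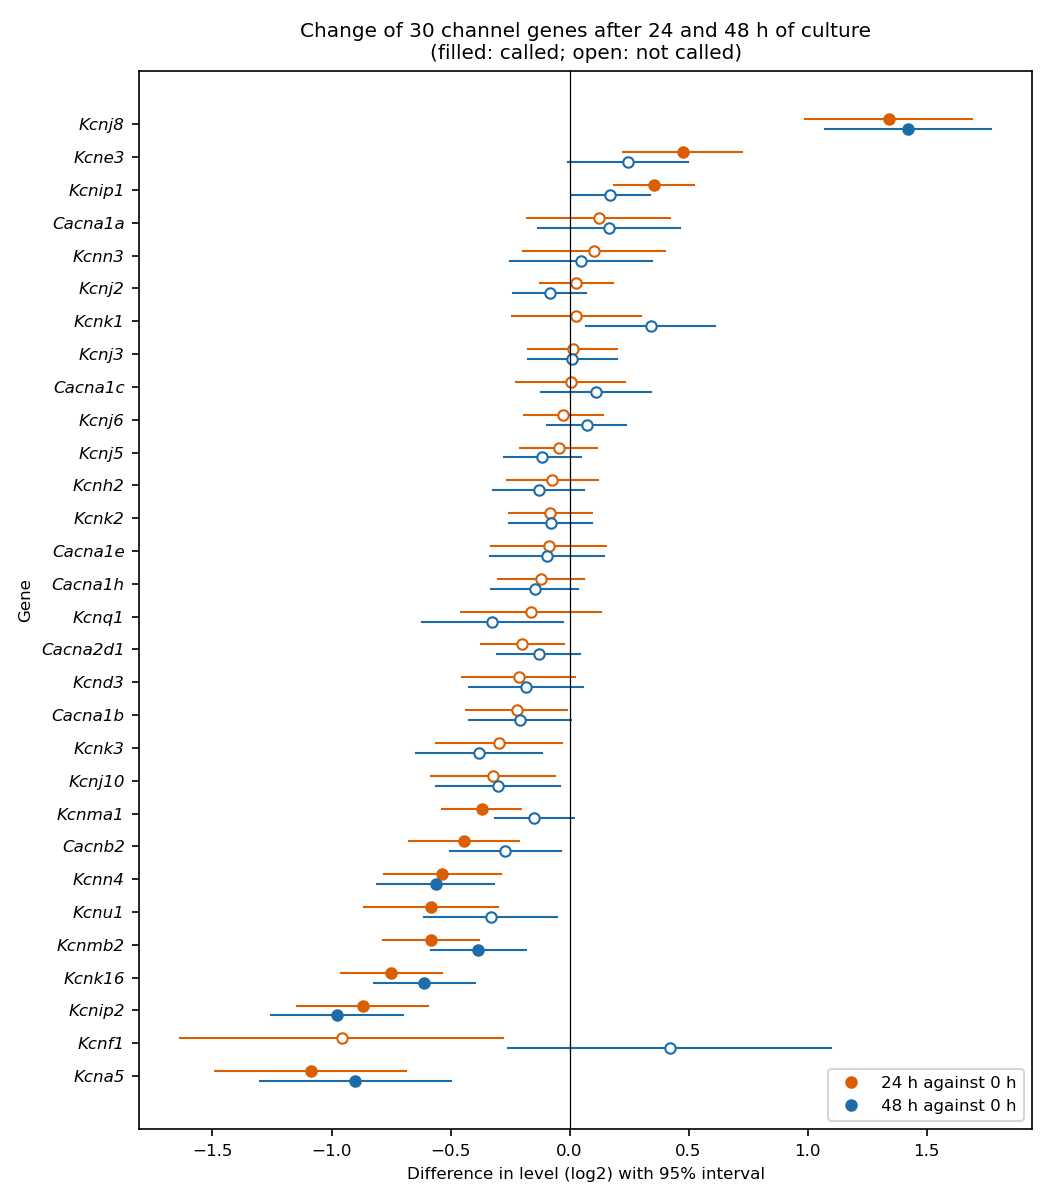
Difference in log2 level (x axis) with its 95% interval for 30 channel genes (y axis), in orange for 24 h and blue for 48 h against 0 h, both measured against the same 0 h arrays. Filled points were called; Kcnj8 stands to the right at both times, and the intervals of the calcium channel pores Cacna1a and Cacna1c include 0.

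Sodium channel subunits, which start the action potential in many excitable cells, were measured for 11 of 14 genes, 1 of them above a mean of 5. At 24 h 0 rose and 2 fell, so 18.2% of the 11 were called, against 12.1% of all genes. The pore subunit Scn3a had levels of 5.28, 4.92, 5.16, 4.90 and 5.48 at 0 h, above the 24 h range of 3.97 to 4.74 (median 4.42). It fell by 0.75 at 24 h (adjusted p = 0.00171 by limma), and its difference at 48 h was -0.43 (adjusted p = 0.0699). The auxiliary subunit Scn3b fell at both times, by 0.68 (adjusted p = 0.000108) and by 0.40 (adjusted p = 0.0125). At 48 h 3 sodium channel genes fell: Scn3b, and Scn7a and Scn2a, whose levels were under the table's median at all times. That is 27.3% of the 11, against 11.7% of all genes. Scn9a, the gene above 5, differed by -0.16 (adjusted p = 0.546) and -0.09 (adjusted p = 0.749). The median of the 11 genes was -0.17 at 24 h and -0.14 at 48 h, beside -0.01 and -0.02 for all genes.

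Other genes of islet excitability, a list of 44 pumps, exchangers, cation and chloride channels, gap junction and calcium store genes, were measured for 36. At 24 h 1 rose and 10 fell, and at 48 h 2 rose and 8 fell. That is 30.6% and 27.8% of them, against 12.1% and 11.7% of all genes. Of the 36, 25 had a mean above 5, where 19.0% and 17.8% of all genes were called. Trpm5, a calcium-activated cation channel, fell by 1.48 at 24 h and by 1.20 at 48 h (adjusted p = 3.18e-06 and 4.31e-05 by limma). Ano1, a calcium-activated chloride channel, fell by 1.10 and 0.96, and Atp1b2, a beta subunit of the sodium pump, by 1.05 and 0.84. The pacemaker channel Hcn2 rose by 0.30 at 24 h, and at 48 h Trpm2 rose by 0.65 and Atp1b1 by 0.30. Of 22 measured exocytosis genes, 0 rose and 3 fell at 24 h (Rab3a, Rims2 and Cadps), and 2 rose and 2 fell at 48 h. The called share was 13.6% and 18.2%, and 20 of the 22 had a mean above 5. The vesicle GTPase Rab3a fell by 0.55 and 0.56, and the calcium sensors Syt4 and Syt7 rose by 0.41 and 0.34 at 48 h.

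Markers of the cell types of the islet and its surroundings were read on the same arrays. For scale, 12.1% of all genes were called at 24 h and 11.7% at 48 h. Of 8 measured markers of beta cells, the main cell of the islet, 0 rose and 6 fell at 24 h, and 0 rose and 5 fell at 48 h. Their mean level was 11.00 to 11.09 on the 0 h arrays, 10.48 to 10.77 on the 24 h arrays and 10.74 to 10.83 on the 48 h arrays, so neither later range met that of 0 h. Slc2a2, the glucose transporter, fell by 0.75 and 0.45, and the transcription factor Nkx6-1 fell by 0.75 and 0.40. Ins2 and Iapp changed little: Ins2 was at 13.74 to 13.81 on the 0 h arrays and 13.70 to 13.76 on the 24 h arrays. Iapp was at 12.96 to 13.07 and 13.00 to 13.26. Ins2 held the highest value of the whole table, 13.81, and changes so close to the top of the scale may be understated. Kcnk16, for comparison, fell by 0.75 and 0.61. Delta cell markers, of which 3 of 4 fell at 24 h and 2 at 48 h, had means of 7.22, 6.53 and 6.56 at the 3 times (SD 0.35, 0.24 and 0.24). Both gamma cell markers fell at 24 h and neither was called at 48 h, with means of 11.13, 10.00 and 10.33. Of 4 alpha cell markers, 1 fell at each time. Fibroblast markers had means of 3.97, 3.66 and 4.48, with 2 of 6 lower at 24 h and 3 of 6 higher at 48 h. Of 4 duct markers 1 rose at each time, of 7 neuron markers 1 rose at each time and 1 fell at 48 h, and of 6 glia markers 0 were called. Macrophage markers had means of 5.41 to 6.11, 4.90 to 5.55 and 5.53 to 6.03 at the 3 times. Acinar markers, RNA of the surrounding exocrine tissue, had means of 5.23 to 8.81, 3.96 to 7.42 and 3.36 to 5.55. The part of these cell types in the channel results was not tested. Without the pair of arrays that stood apart, 12 channel genes were called at 24 h and 6 at 48 h, with all 11 and all 6 of the genes above among them.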

How the data were processed

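Gene expression was measured on 17 single-colour arrays of C57BL/6 islets (5 at 0 h, 6 at 24 h, 6 at 48 h), grouped by the labels. The authors' deposited values are log2 levels. Per the submitters' processing notes, RMA made them, in a version not given in the sources used here. This method quantile-normalizes arrays, which removes a change shared by most transcripts and compresses differences of dim probe sets. The number of arrays limits the precision, and the files used here held no detection calls.

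After 64 control probe sets were left out, 45037 were fitted with limma 3.58.1 in R 4.3.3 (a mean per time, eBayes, Benjamini-Hochberg adjustment per comparison). The platform annotation gave 1 symbol to 34945 probe sets, several to 932, and did not list 9160. Tests were checked on simulated data. Named genes are the called members above a mean of 5, the 8 with the highest mean, a set of 31 islet channel genes (26 with a probe set), at most 5 called members at or under 5, and at most 3 called genes of each other list. Members, lists and motifs were chosen with earlier results of these data known. Batches pair the arrays, per the study's design text: deviations of arrays of a batch correlated at a median of 0.00545 (-0.159 to 0.274), 4 of 16 pairs above 0.1. Alternatives were a fixed or a random block for the batch, complete batches, left-out arrays, centring, quantile normalization again, filters on level and probe set kind, fitting only compared times, another variance prior, averaged probe sets, and added sodium channel genes.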

Additional observations from a re-analysis of the deposited data

Results flagged for a closer look

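A sample far from the others of its time was found in 7 of 111 groups of arrays (6.31%), where chance marks about 1 in 20 groups. Of these, 3 were on replicate 5 at 24 h, an array that stood apart across all genes: Cacnb2 at 5.80 (the other arrays 6.37 to 6.67), Cacng7 at 7.82 (6.15 to 6.51) and Kcnk12 at 4.54 (5.20 to 5.47). Cacna1c was low on replicate 3 at 0 h, the other array that stood apart, at 5.48 (5.81 to 5.95). Kcnip1 was low on replicate 4 at 48 h, at 8.63 (8.87 to 8.94). Kcnj6 was high on replicate 5 at 48 h, at 3.93 (3.62 to 3.70). Kcnk2 was low on replicate 6 at 0 h, at 2.38 (2.60 to 2.64), a level under the median of the table.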

How the results depend on the processing

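Over 29 alternatives, the count of channel genes called was 9 to 13 at 24 h (11 as reported) and 4 to 9 at 48 h (6 as reported), the highest with the sodium channel genes added. The 17 called values kept their direction in 471 refits and stayed called in 465. The 6 losses were those of Kcnma1 at 24 h, Kcnmb2 at 48 h and Kcnn4 at both times with averaged probe sets, Kcnmb2 at 48 h without replicate 4 at 0 h, and Cacnb2 at 24 h in the fit of 2 times. For 48 h against 24 h the count was 0 as reported and 1 (Kcnf1) with the batch as a replicate block, with a random block, in complete batches, without the arrays that stood apart, with median centring and with a filter above 5. Leaving out each array in turn gave 0 to 1, with 1 without replicate 3 at 0 h, replicate 5 at 24 h or replicate 3 at 48 h. The cause was not tested. With the batch as a fixed replicate block the counts were 12, 6 and 1 (11, 6 and 1 with the random block), and no call other than those of Kcnf1 changed. Depth is not defined for arrays, and 86 of the 107 genes had a mean at or under 5, where signal over background limits what can be seen.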
